A study of Mus musculus with 6 samples.

Results

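The 10 genes described here are the tumour suppressor gene Trp53, which encodes the transcription factor p53, and 9 genes that p53 is known to switch on to hold back the cell cycle and to limit its own activity: Cdkn1a, Ccng1, Mdm2, Btg2, Plk2, Plk3, Gadd45a, Ppm1d and Phlda3. They were taken by name from the deposited gene count table, where all 10 were found among 54924 genes, and all 10 had enough counts to be tested among 14558 genes. mRNA was measured by RNA sequencing in 3 libraries of C2C12 myotubes given 25 μM kaempferol for 24 h and in 3 control libraries without kaempferol. C2C12 is a mouse myoblast line whose cells fuse into myotubes when serum is lowered, here over 6 days, and kaempferol is a plant flavonol. All 6 libraries shared this differentiation, after which the cells were seeded again in plates overnight, although a treatment tag on every library reads dedifferentiation. The shared protocol text gives kaempferol to all cells, so titles and treatment tags decided the groups, and the vehicle of the controls is not stated. C2C13, the spelling on the kaempferol labels, was read as C2C12. The study asked how kaempferol changes gene expression in these muscle cells.

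p53 is held at a low level by MDM2, a ubiquitin ligase that marks it for breakdown and whose own gene is a p53 target. When DNA damage, oxidants or other stress release p53 from this hold, it binds pairs of short half-sites in DNA and raises transcription of its targets. Cdkn1a, the best known of them, encodes p21, which inhibits cyclin-dependent kinases and in muscle also marks cells that leave the cell cycle to form myotubes. p53 is controlled mainly through its protein, so the level of Trp53 mRNA is not a measure of its activity.

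The promoters of Cdkn1a and Ccng1 are shown because they hold the p53 full site and because these genes had the largest rises among the 10. Promoter windows from RefSeq (build GRCm38.p6, 250 bases before to 50 bases after each annotated start) were available for all 10 genes, in 11 windows, since Cdkn1a has 2 starts. A p53 half-site has 10 letters. A full site was defined as 2 adjacent half-sites with at most 1 letter of 20 off and the core C and G of each half-site kept. Each half-site and full site was searched on both strands, and a full site contains half-sites. A full site was found in 2 of the 11 windows, at the outer start of Cdkn1a and at Ccng1, and in 22 of 32851 windows of all genes (0.067%). In the sequences below, each the 250 bases before the start, read 5′ to 3′ along the gene, capitals mark the full site. That of Cdkn1a lay 51 to 32 bases before its outer start (chr17:29090928-29090947, plus strand). That of Ccng1 lay 195 to 176 bases before its start (chr11:40755462-40755481, minus strand). The window of the inner Cdkn1a start (chr17:29093769) held no full site and no half-site, and counts per gene do not tell which start was used.
Cdkn1a, chr17:29090729-29090978, plus strand: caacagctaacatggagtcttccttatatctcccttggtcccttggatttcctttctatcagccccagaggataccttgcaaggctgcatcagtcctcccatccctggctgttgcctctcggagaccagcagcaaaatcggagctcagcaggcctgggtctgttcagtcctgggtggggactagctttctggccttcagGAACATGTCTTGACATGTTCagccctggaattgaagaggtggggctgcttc
Ccng1, chr11:40755287-40755536, minus strand: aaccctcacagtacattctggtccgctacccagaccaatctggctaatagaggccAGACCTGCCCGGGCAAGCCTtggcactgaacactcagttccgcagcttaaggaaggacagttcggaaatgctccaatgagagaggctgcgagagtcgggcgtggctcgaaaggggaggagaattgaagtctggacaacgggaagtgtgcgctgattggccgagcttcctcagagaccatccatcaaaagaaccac

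The next windows are shown because the same letters stood before genes that rose and genes that did not pass the test. An exact half-site was found for 6 of the 10 genes (Gadd45a, Mdm2, Ccng1, Trp53, Ppm1d and Cdkn1a), against 8.23% of the 10081 tested genes with a window. Capitals mark the half-site in the first 4 lines. The cyclic AMP response element TGACGTCA, the same on both strands, was found for Btg2, Plk2 and Ppm1d, against 1.79% of all windows, and capitals mark it in the last 3 lines. Other motifs searched on both strands are not shown. TGACNNNGC, the core of the antioxidant response element, was found for Trp53 and at the inner start of Cdkn1a, against 12.4% of all windows. TATAAA was found for Trp53, against 13.6%, and the AP-1 motif TGANTCA for none of the 10 genes, against 7.81%. CCAAT was found for Btg2, Gadd45a, Mdm2, Ccng1, Trp53 and Ppm1d, against 37.4%.
Mdm2, chr10:117710925-117710954, minus strand: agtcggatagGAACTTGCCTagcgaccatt
Gadd45a, chr6:67037428-67037457, minus strand: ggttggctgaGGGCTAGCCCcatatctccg
Trp53, chr11:69580274-69580303, plus strand: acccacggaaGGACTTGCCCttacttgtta
Ppm1d, chr11:85311112-85311141, plus strand: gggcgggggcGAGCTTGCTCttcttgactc
Btg2, chr1:134079303-134079332, minus strand: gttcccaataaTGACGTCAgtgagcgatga
Plk2, chr13:110394971-110395000, plus strand: agcgctcgccgTGACGTCAcgaggccccgc
Ppm1d, chr11:85311158-85311187, plus strand: agcgagccgagTGACGTCAtcaggagaaag
Phlda3 and Plk3 held none of these motifs in their windows. A match describes letters and not binding, and sites outside these windows, such as those in introns, were not searched.

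Kaempferol raised 7 of the 10 genes: Cdkn1a, Ccng1, Gadd45a, Btg2, Plk2, Phlda3 and Mdm2. None was downregulated, and Trp53, Plk3 and Ppm1d did not pass the test. The 7 rises ran between 1.39-fold for Mdm2 and 2.00-fold for Ccng1. Counts were scaled with TMM factors, a scaling between libraries, and are given as CPM, counts relative to the total of the library. Differences were tested by the quasi-likelihood method of edgeR, with p-values adjusted over all tested genes, and called at an adjusted p under 0.05. Of all tested genes, 24.0% were called, 11.3% upregulated and 12.6% downregulated, or 1647 and 1840 genes, and with upper-quartile scaling 1966 and 1424 genes. DESeq2 also called none of the 10 genes downregulated, and no 95% interval lay wholly below 0. The groups were fully apart, with kaempferol higher, for 8 of the 10 genes (the 7 risen genes and Trp53). Over all tested genes they were apart for 38.2%, with kaempferol higher for 18.6% and lower for 19.6%. Among the 10 genes the log2 fold change had a median of 0.51, beside -0.00 over all tested genes. A rise of at least 1.5-fold with a call was seen for 4 of the 10 genes and for 3.03% of all tested genes. No label says that replicates were grown separately, and the p-values therefore cover library-to-library spread, which may be technical. In bulk RNA, a change in the number of expressing cells and a change in RNA per cell cannot be told apart.

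**Figure D1:**
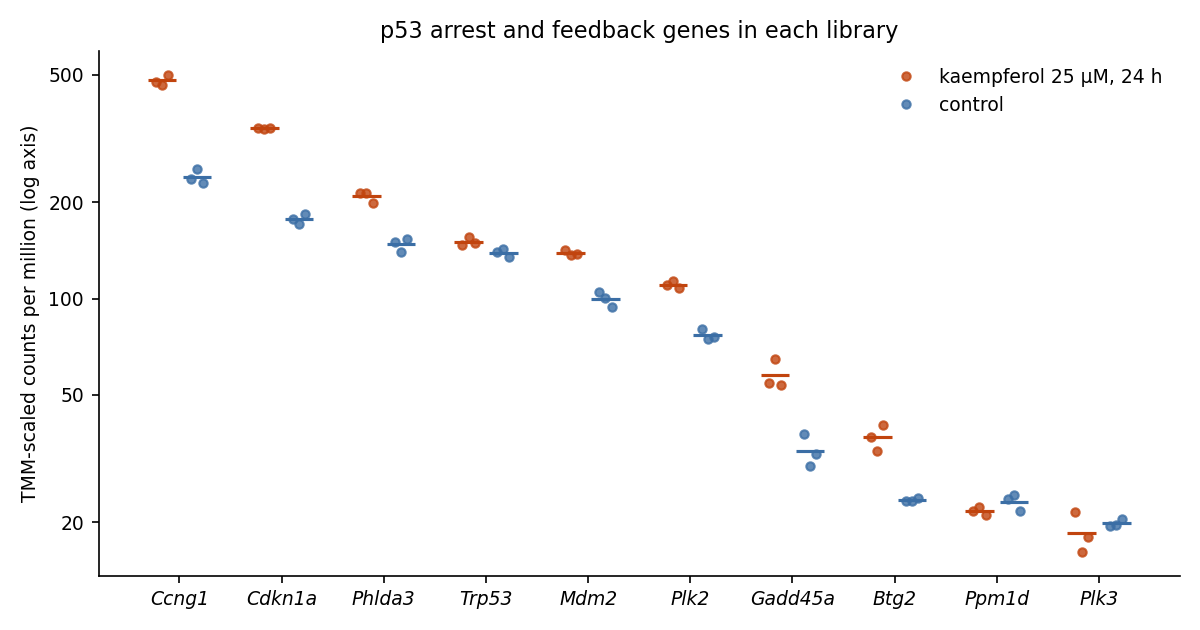
TMM-scaled CPM (log axis) of the 10 genes in each library, with kaempferol in orange, control in blue and the group mean as a bar. The groups stand apart for 8 genes, the narrowest gap being that of Trp53, and overlap for Ppm1d and Plk3.

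Libraries held 16575790 to 18625272 counts, and the tested genes took more than 99.8% of each. On the second principal component (14.4% of the variance), control replicate 3 lay at 21.8, away from the other controls at -11.7 and -9.58. Without it the same 7 genes were called. Myotube markers were present (19 of 21 tested, summed level 1408 to 1490 CPM in kaempferol and 1386 to 1544 CPM in control libraries), though Tnnc2, which overlaps Ube2c in the annotation, was listed at 0 and Myh8 had 2 to 8 counts. The most abundant of them alone had 566 to 613 CPM in kaempferol and 623 to 667 CPM in control libraries. Of the 19 tested myotube markers 4 were upregulated, 3 were downregulated and 12 did not pass, with log2 fold changes of -1.50 to 0.75 (median -0.01). The value of -1.50 came from a scarce marker, with 0.319 to 0.804 CPM in kaempferol and 1.39 to 2.06 CPM in control libraries. Markers of myoblasts and reserve cells were present too, 14 of 15 tested, with 1354 to 1403 CPM in kaempferol and 1448 to 1491 CPM in control libraries. Of these 14 markers 1 was upregulated, 5 were downregulated and 8 did not pass, with a median of -0.05. All 8 markers of dividing cells were downregulated, and their sum was 1822 to 1916 CPM in kaempferol and 2413 to 2563 CPM in control libraries. The part of dividing, undifferentiated and fused cells in the values of the p53 targets was not tested.

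Cdkn1a was raised almost 2-fold with very little spread. Cdkn1a (ENSMUSG00000023067, chromosome 17 of mm10 from 29090976 to 29100727) had 341, 339 and 342 CPM in the kaempferol libraries, against 177, 171 and 183 CPM in the control libraries. The lowest kaempferol library was 1.85 times the highest control library. The log2 fold change was 0.94 (standard error 0.0447, edgeR adjusted p = 2.79e-11). The kaempferol libraries differed by a coefficient of variation of 0.454%, below the 1.29% that counting alone gives for 5661 to 6433 counts. AC167363.2, a locus on the other strand that shares 1046 bases with Cdkn1a, had 49 to 78 counts in kaempferol and 22 to 32 in control libraries. Whether counting used strand is not known, so reads of overlapping genes are uncertain.

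Ccng1 had the largest log2 fold change of the 10 genes. It encodes cyclin G1, a p53 target that brings protein phosphatase 2A to MDM2 and so takes part in p53 feedback. Ccng1 (ENSMUSG00000020326, chromosome 11 from 40748552 to 40755311) had 476, 464 and 501 CPM with kaempferol, against 236, 254 and 229 CPM in control. Its counts of 7749 to 9429 in kaempferol and 3808 to 4568 in control libraries were the highest of the 10 genes in both groups. The groups were separated by more than the range within either, and the log2 fold change was 1.00 (standard error 0.0493, edgeR adjusted p = 4.92e-11).

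Gadd45a and Btg2 rose too, at lower levels and with a wider spread. Gadd45a encodes a small acidic protein that binds PCNA, p21 and CDK1 and slows entry into mitosis. Gadd45a (ENSMUSG00000036390, chromosome 6 from 67035096 to 67037457) had 54.4, 64.7 and 53.9 CPM in kaempferol libraries, against 37.8, 30.0 and 32.6 CPM in control libraries. Its log2 fold change was 0.78 (standard error 0.0875, edgeR adjusted p = 3.26e-06), and the coefficient of variation of 10.6% in kaempferol and 11.8% in control libraries was above counting errors of 3.14% in kaempferol and 4.16% in control libraries. Leaving out kaempferol replicate 2, the highest, gave a log2 fold change of 0.69 (adjusted p = 2.13e-05, within 3.37e-25 to 4.38e-05 over all alternatives). The transcript E230016M11Rik runs on the other strand over 859 bases of Gadd45a, with 25 to 41 counts in kaempferol and 18 to 36 in control libraries, and reads there cannot be told apart without strand.

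Btg2 encodes an antiproliferative protein that recruits the mRNA deadenylase complex. Btg2 (ENSMUSG00000020423, chromosome 1 from 134075170 to 134079120) had 36.9, 33.4 and 40.2 CPM with kaempferol, against 23.3, 23.3 and 23.8 CPM in control. The kaempferol libraries varied by 9.34%, above their counting error of 3.92%, and the control libraries by 1.29%, below theirs of 4.97%. The log2 fold change was 0.65 (standard error 0.0794, edgeR adjusted p = 8.79e-06), and the groups did not overlap.

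Of the polo-like kinase genes, Plk2 rose and Plk3 did not pass the test. Plk2 and Plk3 encode stress-responsive kinases that, unlike the mitotic kinase of Plk1, are linked to checkpoints. Plk2 (ENSMUSG00000021701, chromosome 13 from 110395046 to 110400844) had 110.3, 113 and 108 CPM in kaempferol libraries, against 80.1, 74.7 and 75.7 CPM in control libraries, a log2 fold change of 0.52 (standard error 0.0489, edgeR adjusted p = 3.73e-07). Plk3 (ENSMUSG00000028680, chromosome 4 from 117128655 to 117133963) had 21.5, 16.2 and 18.0 CPM with kaempferol, against 19.5, 19.6 and 20.5 CPM in control. Kaempferol replicate 1 was the highest of all 6 Plk3 values and the other kaempferol libraries were the lowest, so the groups overlapped. Its log2 fold change was -0.10 (standard error 0.100, edgeR adjusted p = 0.532), with an unadjusted 95% interval of -0.31 to 0.11. That interval excludes the rise of Plk2 but leaves room for a change of Plk3 in either direction. Without kaempferol replicate 1 the log2 fold change of Plk3 was -0.22 (adjusted p = 0.142), and without kaempferol replicate 2 it was -0.01 (adjusted p = 0.97), which were the lowest and highest adjusted p over all alternatives.

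Phlda3 rose by a similar amount to Plk2. It encodes a small pleckstrin homology domain protein that competes with the kinase AKT for membrane lipids and so restrains AKT. Phlda3 (ENSMUSG00000041801, chromosome 1 from 135766119 to 135769136) had 214, 213 and 199 CPM with kaempferol, against 150.1, 140 and 154 CPM in control. No kaempferol library was as low as any control library. The log2 fold change was 0.50 (standard error 0.0499, edgeR adjusted p = 8.58e-07).

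Of the feedback regulators, Mdm2 rose and Ppm1d did not pass the test. Mdm2 (ENSMUSG00000020184, chromosome 10 from 117688875 to 117710758) had 142, 137 and 138 CPM in kaempferol libraries, against 105, 101 and 93.9 CPM in control libraries. The log2 fold change was 0.48 (standard error 0.0495, edgeR adjusted p = 1.37e-06), the smallest of the 7 rises. Ppm1d encodes the phosphatase WIP1, which removes phosphates from p53 and from the kinases that switch it on. Ppm1d (ENSMUSG00000020525, chromosome 11 from 85311244 to 85347066) had 21.7, 22.3 and 21.1 CPM with kaempferol, against 23.6, 24.3 and 21.7 CPM in control. Its groups overlapped, and the log2 fold change was -0.10 (standard error 0.0803, edgeR adjusted p = 0.428, unadjusted 95% interval -0.27 to 0.07). With 360 to 436 counts per library, counting error alone was about 5.11% in kaempferol and 4.99% in control libraries. The interval excludes a rise of the size of Mdm2.

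Trp53 itself differed little between the groups. Trp53 (ENSMUSG00000059552, chromosome 11 from 69580359 to 69591873) had 147, 156 and 149.6 CPM in kaempferol libraries, against 139, 143 and 135 CPM in control libraries. The groups did not overlap, but the lowest kaempferol library was only 1.02 times the highest control library. The log2 fold change was 0.11 (standard error 0.0464, unadjusted 95% interval 0.02 to 0.21, edgeR adjusted p = 0.0855), and DESeq2 gave an adjusted p of 0.12. With upper-quartile scaling in place of TMM it passed, at a log2 fold change of 0.14 (adjusted p = 0.0347, within 0.0347 to 0.289 over all alternatives). The processed pseudogene Trp53-ps matches Trp53 mRNA at 94.957% over 1170 bases, but it had only 19 to 27 counts in kaempferol and 12 to 27 in control libraries, against 2246 to 2815 for Trp53.

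Set per length, the 10 genes spanned a wide range of mRNA levels. Levels were compared as CPM per kilobase of the deposited gene length (mean ± SD, n = 3). In kaempferol libraries Ccng1, Phlda3 and Cdkn1a led with 137 ± 5.40, 134 ± 5.41 and 95.9 ± 0.436 CPM per kilobase. In control libraries the order at the top was Phlda3, Ccng1 and Cdkn1a, with 94.8 ± 4.62, 68.4 ± 3.64 and 49.9 ± 1.74 CPM per kilobase. Ccng1 and Phlda3 overlapped in the kaempferol libraries (132 to 143 and 128 to 137) and were apart in the control libraries.

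Trp53 came 4th in both groups, with 37.3 ± 1.22 CPM per kilobase in kaempferol and 34.4 ± 0.975 in control libraries. Below it in kaempferol libraries stood Gadd45a, Mdm2, Plk2 and Btg2, with 32.7 ± 3.47, 27.3 ± 0.579, 24.6 ± 0.579 and 13.4 ± 1.25 CPM per kilobase. In control libraries these genes had 19.0 ± 2.25, 19.6 ± 1.10, 17.1 ± 0.635 and 8.55 ± 0.111 CPM per kilobase. Gadd45a overlapped with Trp53 in the kaempferol libraries and with Mdm2 and Plk2 in the control libraries. Plk3 had 7.33 ± 1.08 CPM per kilobase in kaempferol and 7.85 ± 0.233 in control libraries, and Ppm1d had 6.84 ± 0.185 in kaempferol and 7.31 ± 0.420 in control libraries. They were the lowest in both groups and overlapped with each other in the kaempferol libraries.

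The ratios of 3 targets to Trp53, also per length, differed between the groups. The ratio of Cdkn1a to Trp53 was 2.65, 2.47 and 2.60 in the kaempferol libraries and 1.44, 1.36 and 1.54 in the control libraries. That of Mdm2 to Trp53 was 0.772, 0.696 and 0.732 with kaempferol and 0.599, 0.559 and 0.552 in control. That of Ppm1d to Trp53 was lower with kaempferol, at 0.189, 0.182 and 0.180, against 0.216, 0.216 and 0.204 in control. None of the 3 ratios overlapped between the groups, though for 3 libraries against 3 the smallest p an exact two-sided permutation test can give is 0.1. The levels of single genes did not overlap for 38.2% of all tested genes. Neither Ppm1d nor Trp53 passed the test alone, and the other targets were not set against Trp53.

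Relatives of the 10 genes in the same protein families moved in both directions. Of 26 relatives, 20 were tested, 7 were upregulated, 4 downregulated and 9 did not pass, beside 11.3% upregulated and 12.6% downregulated over all tested genes, and their median log2 fold change was -0.05. The 11 called relatives became 7 without kaempferol replicate 2, and also without kaempferol replicate 3. Cdkn1b, which encodes the inhibitor p27, had 105.5 ± 6.64 CPM with kaempferol and 109 ± 3.61 CPM in control (SD, n = 3 each), a log2 fold change of -0.04, and Ccng2, the relative of Ccng1, had one of -0.08. Neither passed (edgeR adjusted p = 0.631 and 0.365). Mdm4, which encodes a partner of MDM2 that masks p53 without degrading it, was upregulated by 0.19 on the log2 scale (edgeR adjusted p = 0.0259), but its groups overlapped.

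Among BTG and TOB genes, Tob1 rose by 0.53 and Btg1 by 0.23 on the log2 scale, and Btg3 and Tob2 had values of -0.05 and 0.00. Plk1, the mitotic polo-like kinase gene, was downregulated with a log2 fold change of -0.46 (edgeR adjusted p = 6.73e-07), and Plk4, needed for centriole copying, with one of -0.21. Gadd45g had a log2 fold change of 0.24 and Gadd45b one of -0.10, of which only Gadd45g passed. Phlda1 rose by 0.32 on the log2 scale. Among phosphatases of the PPM family, Ppm1e and Ppm1f rose by 0.55 and 0.28 and Ppm1g fell by 0.21 on the log2 scale. Ccni, a cyclin related to Ccng1, was the other downregulated relative (log2 fold change -0.14). Cdkn1c, Phlda2, Plk5, Btg4, Trp63 and Trp73 had 0 to 17 counts per library and were not tested.

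**Figure D2:**
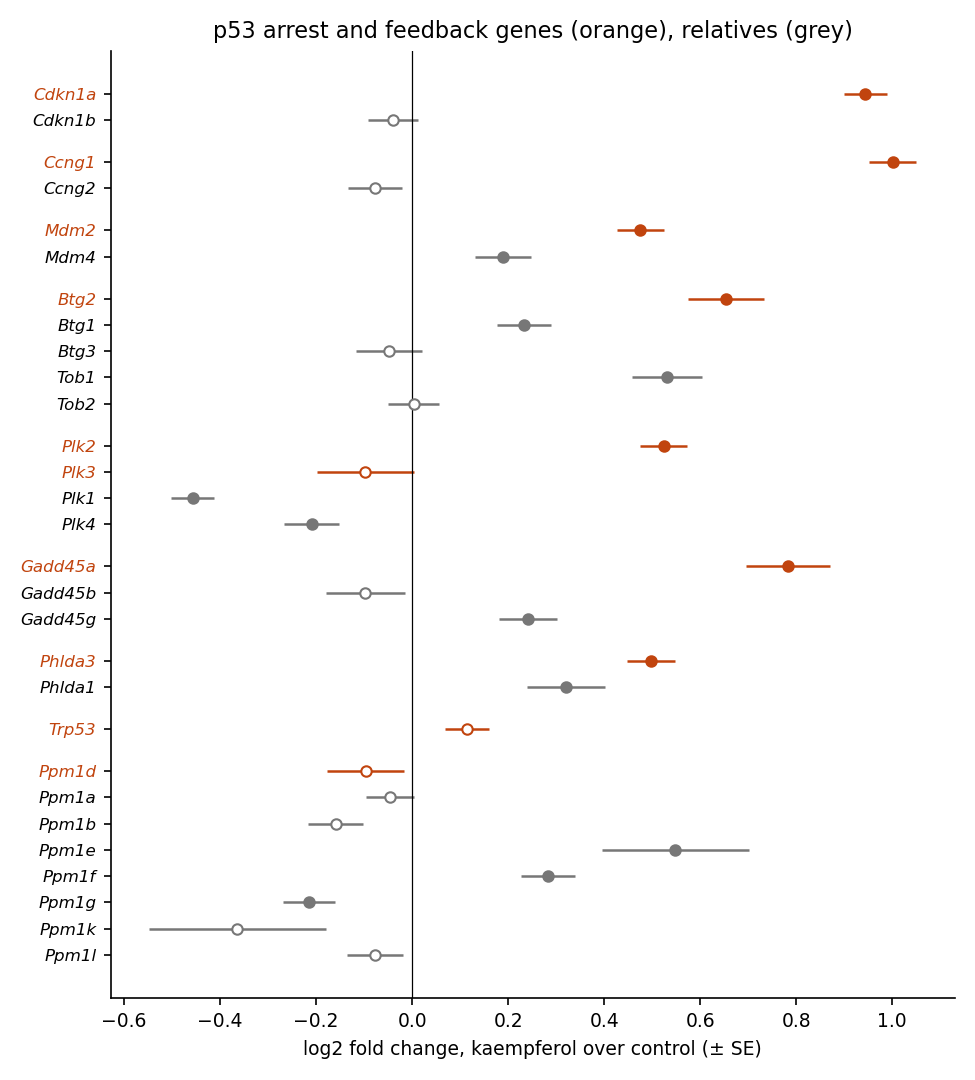
log2 fold change (kaempferol over control, points) with its standard error (bars) for the 10 genes in orange and their tested relatives except Ccni in grey, grouped by family, with filled points for an edgeR adjusted p under 0.05. Cdkn1a, Ccng1, Mdm2, Btg2, Plk2, Gadd45a and Phlda3 each lie right of every relative in their family drawn here, although Tob1 comes close to Btg2.

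Within families, the mean share held by the p53 target was larger after kaempferol for all 8 genes compared, and for 6 of them the libraries of the groups did not overlap. Ppm1d, the remaining target, whose own level did not pass the test, was not compared with its PPM relatives in this way. Shares were taken on counts per base of gene model and are ratios within a library, so they do not depend on scaling between libraries. They move with the relatives as well as with the target. Plk1 had 47.3 CPM per kilobase in kaempferol and 65.0 in control libraries. The mean share of Plk3 was larger although its own level was 7.33 CPM per kilobase with kaempferol and 7.85 in control. Plk2 made up 26.4% to 27.8% of polo-like kinase mRNA in kaempferol libraries and 16.0% to 17.3% in control libraries. Cdkn1a made up 79.6% to 81.5% of the Cip/Kip inhibitor mRNA with kaempferol and 65.9% to 68.5% in control. For Ccng1 the share of cyclin G mRNA was 92.7% to 93.3% with kaempferol and 85.4% to 87.2% in control, and for Gadd45a within GADD45 it was 22.0% to 23.9% with kaempferol and 14.7% to 18.8% in control.

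Mdm2 held 72.3% to 76.3% of the sum with Mdm4 in kaempferol and 69.4% to 70.6% in control libraries, and Btg2 held 13.2% to 15.1% of its family with kaempferol and 10.8% to 11.6% in control. These 6 shares did not overlap between the groups (exact two-sided permutation p = 0.1 each, the smallest that 3 libraries against 3 can give). The share of Phlda3 was 87.8% to 90.2% with kaempferol and 87.2% to 88.7% in control, and overlapped (exact permutation p = 0.2). That of Plk3 was 7.05% to 9.14% with kaempferol and 7.43% to 7.97% in control, and overlapped too (exact permutation p = 0.6).

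**Figure D3:**
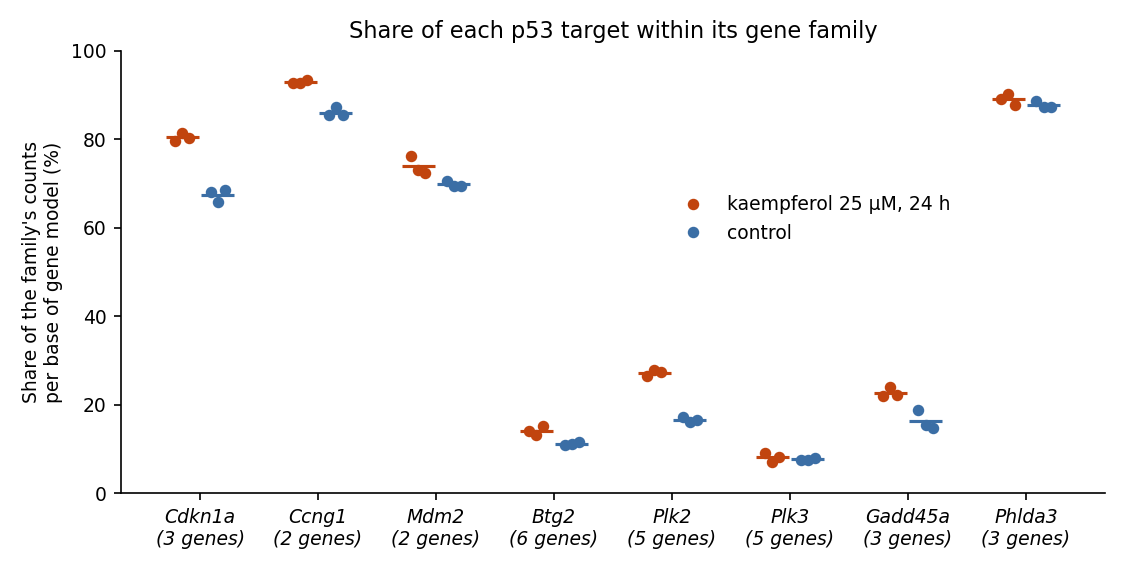
Share (%) of each p53 target except Ppm1d in the counts of its gene family per base of gene model, with kaempferol in orange, control in blue, 1 point per library and the group mean as a bar. The groups stand apart for all genes shown except Phlda3 and Plk3, and the widest gap relative to its level is that of Plk2.

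Other p53 targets were called upregulated more often than regulators of p53, by counts that were not tested against each other. The shares over all tested genes were 11.3% upregulated and 12.6% downregulated. Of 17 tested targets that promote cell death, 11 were upregulated, 1, Dram1, was downregulated and 5 did not pass (median log2 fold change 0.40). The largest rises were those of Trp53inp1, Pidd1, Bax and Zmat3, with log2 fold changes of 1.44, 0.79, 0.76 and 0.73. Trp53inp1 encodes a stress protein that promotes phosphorylation of p53, Pidd1 a death-domain scaffold, Bax a pore-forming protein of mitochondria and Zmat3 an RNA-binding protein. Of 27 other targets, of repair, metabolism and secreted signals, 13 were upregulated, 2 were downregulated and 12 did not pass (median 0.28). Gdf15, a stress cytokine, Eda2r, a death-receptor relative, Sesn2, an inhibitor of mTORC1 signaling, and Ak1, an adenylate kinase, had log2 fold changes of 1.76, 0.96, 0.91 and 0.74. Pcna, the replication clamp, and Epha2, an ephrin receptor, were downregulated, with log2 fold changes of -0.25 and -0.20.

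Of 26 regulators and cofactors tested, 2 were upregulated (Mdm4 and Prkdc), 5 were downregulated and 19 did not pass (median -0.11), so that 7 were called, beside 24.0% of all tested genes. Without control replicate 1 only 3 regulators were called. Ppp1r13l, which encodes the p53 inhibitor iASPP, the acetyltransferase genes Ep300 and Crebbp, and Usp7, whose product spares MDM2 and p53 from breakdown, had log2 fold changes of -0.52, -0.33, -0.28 and -0.27, and the acetyltransferase gene Kat5 had one of -0.22. Cdkn2a, whose ARF product blocks MDM2, had 0 counts in all 6 libraries, which allows up to 0.161 to 0.181 CPM per library at 3 counts. The arrest and feedback genes summed to 1559 to 1571 CPM in kaempferol and 970.1 to 992 CPM in control libraries.

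Many genes of the cell cycle machinery that p21 opposes or acts through were lower in the same libraries. p21 binds cyclin and CDK complexes, which keeps the pocket proteins active and lets them silence cell cycle genes. Of 24 cyclins, kinases, E2F factors and pocket protein partners, 2 were upregulated, 11 were downregulated and 11 did not pass. Upregulated were the D-type cyclins Ccnd1 and Ccnd2 (log2 fold changes 0.31 and 0.32). Over all tested genes 11.3% were upregulated and 12.6% downregulated. Ccna2, E2f2 and Cdk6 had log2 fold changes of -0.45, -0.39 and -0.35. The pocket protein gene Rbl1 was also among the 11 downregulated (-0.30), while the pocket protein genes Rb1 and Rbl2 did not pass. Of 36 cell cycle genes known to be silenced downstream of p21, 31 were downregulated and 5 did not pass (Nusap1, Rrm2, Kif20a, Cdc25a and Chek1). All markers of dividing cells given above belong to these 2 lists, and Plk1 is also among the relatives, so these counts are not separate results. The log2 fold changes of the 36 cell cycle genes had a median of -0.28, and the highest, 0.00, was that of Chek1. Mki67, Kif23, Tk1 and Plk1 had values of -0.76, -0.54, -0.52 and -0.46. Whether the rise in Cdkn1a has a part in these falls was not tested.

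**Figure D4:**
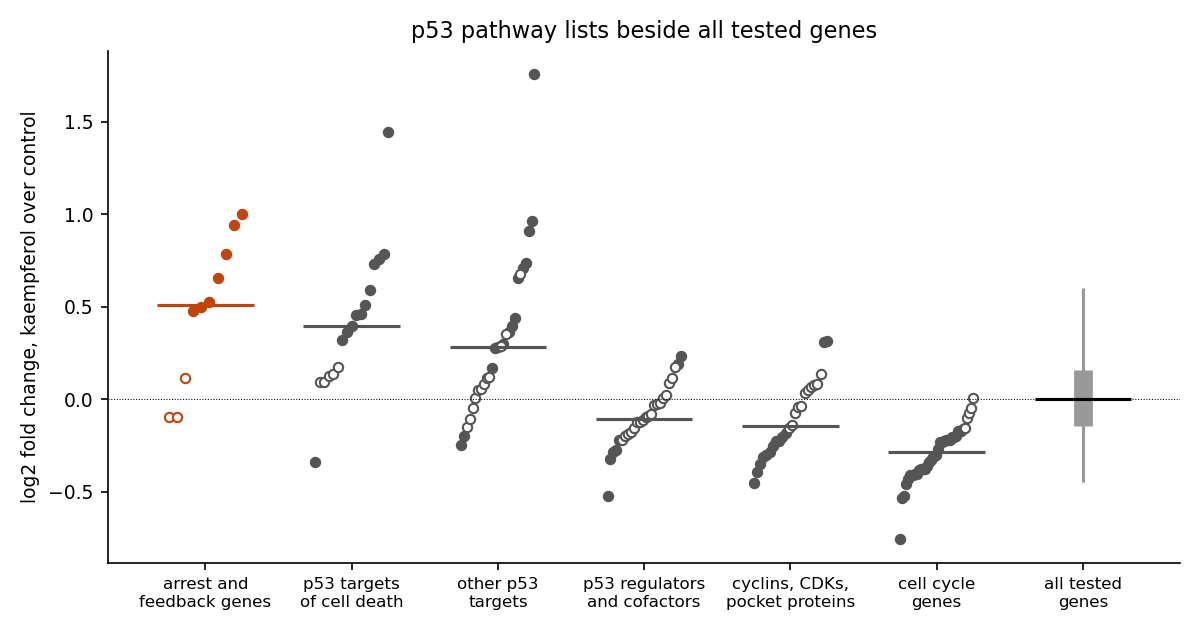
log2 fold change (kaempferol over control) of each gene in the arrest and feedback group (orange) and in 5 other lists (grey), filled for an edgeR adjusted p under 0.05, with the list median as a line. For all tested genes the thick bar spans the 25th to 75th and the thin line the 5th to 95th percentile (-0.14 to 0.16 and -0.45 to 0.60), and 4 of the 10 genes lie above the thin line.

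Likeness to the profile of Cdkn1a was measured as the root mean square difference over the 6 libraries between profiles of log2 CPM, each relative to its control mean. Among 12254 other protein-coding genes the 5 nearest were Rnase4, Igsf9, Slc19a2, G6pdx and Sesn2, with differences of 0.0267 to 0.0508. Rnase4 encodes a secreted ribonuclease, Igsf9 an immunoglobulin superfamily protein, Slc19a2 a thiamine transporter and G6pdx the first enzyme of the pentose phosphate pathway. Of the arrest and feedback genes, Ccng1 came nearest, at place 23 (0.0881), then Gadd45a at place 78 (0.171) and Btg2 at place 162 (0.225), while Plk3 was at place 8645. A near profile here means a rise of about the same size across the libraries and says nothing about shared control.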

How the data were processed

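The deposited file is a table of raw gene counts that the authors made for the 6 libraries, with the length of each gene model. The submitters' processing notes list, with build mm10, fastp, the aligner HISAT2 (2.0.5), the assembler StringTie (1.3.3b), the counter featureCounts (1.5.0-p3) and DESeq2 (1.20.0). Strand use in counting is not given in the sources used here. Poly(A) RNA had been reverse transcribed with random hexamers. Under R 4.3.3, edgeR 4.0.16 filtered the genes (minimum count 10, minimum total 15), which kept 14558, computed TMM factors (0.985 to 1.01) and CPM, and ran its quasi-likelihood test of kaempferol over control with Benjamini-Hochberg adjusted p-values. The standard errors follow from that test. For profiles, log2 CPM had a prior count of 2. In a library, tested genes had a median of 441 to 501 counts.

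The 10 genes, the lists and the tests were chosen with earlier results of these data known. All 10 genes are named, as are up to 4 genes a list with the largest change among called genes whose groups do not overlap, the most abundant relative in a subfamily, and the 5 genes nearest to Cdkn1a. Markers of myotubes, myoblasts and dividing cells are given only as counts, ranges and medians. Further relatives, absent markers, and the genes behind small counts were chosen after their values were seen. Examples of the last are Ccnd1, Pcna, Epha2, Dram1, Kat5, Prkdc, Rbl1, Rb1, Rbl2 and Cdkn2a. Alternatives were DESeq2 (1.42.0), other scaling (RLE, upper-quartile), testing without a filter, a filter of 10 counts in each library, a block for replicate number, protein-coding genes alone, and each library left out in turn. Tests were checked on simulated counts. Near-identical transcripts were sought with blastn in GENCODE M21, of the same mouse assembly. Promoters came from RefSeq, GRCm38.p6.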

Additional observations from a re-analysis of the deposited data

How the results depend on the processing

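Of the 10 genes, 7 were called upregulated under 12 of 13 alternatives and 8 with upper-quartile factors, where Trp53 passed, and none was downregulated under any alternative. Of 130 log2 fold changes of the 10 genes under these alternatives, 129 kept their direction and their side of the threshold. The median of the 10 genes was 0.54 with upper-quartile factors, which moved the median of all tested genes to 0.03, and 0.50 to 0.54 with a library left out. Upper-quartile factors gave 1966 genes higher and 1424 lower (58.0% higher), against 1647 and 1840 (47.2% higher). Leaving out a library gave 1210 to 1628 genes downregulated, the lowest without control replicate 1, 3 to 7 regulators of p53 called, the lowest also without control replicate 1, and 7 to 10 relatives called, the lowest without kaempferol replicate 2 or 3. With the replicate number as a block, 4 regulators of p53 were called, against 7, and 1337 genes were higher and 1413 lower. Same-numbered libraries did not deviate together (correlations of -0.0246, -0.0612 and -0.0453), and no kaempferol library correlated best with the control of its own number. Over all combinations the correlations were -0.0612 to 0.0569. Values this weak cannot tell whether same-numbered libraries were set up as pairs. Depth limits Plk3, Ppm1d and Btg2 most, with 270 to 757 counts per library.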

Other observations

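The p53 full site, as defined for the promoters of Cdkn1a and Ccng1, was found in the windows of 6 tested genes. These were looked up after the site had been seen, so their values are a description. Besides Cdkn1a and Ccng1 they were Rps27l, Gtse1, Mthfd1 and Sptbn4. Rps27l, a ribosomal protein paralog known as a p53 target, had 234, 217 and 203 CPM in kaempferol libraries, against 159, 149 and 170.2 CPM in control libraries, and rose by 0.45 on the log2 scale (edgeR adjusted p = 1.66e-05). Gtse1, a cell cycle protein that restrains p53, had 107, 111 and 106 CPM with kaempferol, against 97.4, 94.9 and 95.2 CPM in control, and rose by 0.17 on the log2 scale (edgeR adjusted p = 0.0124). Mthfd1, an enzyme of folate metabolism, went the other way, with 119, 115 and 119 CPM in kaempferol libraries, against 137, 136 and 138 CPM in control libraries (log2 fold change -0.22, edgeR adjusted p = 0.0013). Sptbn4, a spectrin, was near 1 CPM and its groups overlapped.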
